A study of Mus musculus with 23 samples.

Results

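Cytosolic ribosomal protein genes encode the protein part of the ribosomes that work in the cytosol, and were taken as every row of both expression tables whose symbol is Rpl or Rps followed by a digit, together with Rplp0, Rplp1, Rplp2 and Rpsa. Symbols containing -ps and those of the Rps6k kinases and Rps19bp1 were left out. The rule found 87 genes of 24421, of which by symbol 50 belong to the large subunit, 34 to the small subunit and 3 to the acidic stalk of the large subunit. Rpl37rt and Rps4l, which are annotated as transcribed processed pseudogenes, are among them.

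The libraries came from MDSCs, also labelled immature myeloid cells, a mixture of neutrophil-like and monocyte-like cells that were separated with magnetic beads from mouse peripheral blood. One set came from Balbc mice and is labelled CT26, a colon carcinoma line, and the other from C57bl mice and is labelled B16, a melanoma line, each at days 0, 4, 8 and 11. The question was which transcripts of these blood cells change as a tumour progresses. Each group held 3 libraries, except B16 day 4 with 2, and all were made by poly-A selection; the design calls them biological repeats without saying how animals relate to libraries, so p-values measure the spread between these libraries. The labels give no age, no treatment and no count of days from a named event, so day 0 is taken as the first day of each set. Every comparison with day 0 uses the same day 0 libraries of its model, so the days are not independent of each other.

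A ribosome is built in the nucleolus from ribosomal RNA and ribosomal proteins, and cells make the proteins in near-equal amounts and in step with growth. Many mRNAs of this family start with a run of pyrimidines, the 5′ terminal oligopyrimidine (TOP) motif, through which mTORC1 and the protein Larp1 control their translation and stability. In the bone marrow, dividing neutrophil precursors are known for more ribosomal transcripts than the mature neutrophils that enter the blood.

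The starts of some of these genes are shown because the TOP motif is what the family is known for. Each line gives 30 bases of the gene's own strand, centred on the start that RefSeq annotates on GRCm38.p6. A run of at least 8 bases that are each C or T is in capitals where it covers the start, or begins or ends within 10 bases of it. A counted run can therefore lie wholly before the annotated start, as that of Rpl4 does. The other strand was not searched, since the motif belongs to the RNA, and a run can reach beyond the bases printed. Rplp0, Rpl5 and Rps3a1 had no such run.
Rpl13a, chr7:45128731-45128760, minus strand: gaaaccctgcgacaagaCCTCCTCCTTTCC
Rpl15, chr14:18270972-18271001, minus strand: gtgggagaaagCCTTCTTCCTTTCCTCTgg
Rpl27a, chr7:109519180-109519209, plus strand: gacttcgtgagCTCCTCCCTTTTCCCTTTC
Rpl7a, chr2:26910792-26910821, plus strand: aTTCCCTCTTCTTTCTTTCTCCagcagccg
Rplp2, chr7:141447636-141447665, plus strand: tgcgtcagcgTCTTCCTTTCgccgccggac
Rps6, chr4:86857353-86857382, minus strand: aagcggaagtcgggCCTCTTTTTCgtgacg
Rps9, chr7:3704026-3704055, plus strand: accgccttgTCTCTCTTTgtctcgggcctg
Rplp0, chr5:115559452-115559481, plus strand: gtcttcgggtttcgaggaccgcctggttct
Rpl5, chr5:107900513-107900542, plus strand: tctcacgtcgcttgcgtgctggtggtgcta
Rps3a1, chr3:86142654-86142683, minus strand: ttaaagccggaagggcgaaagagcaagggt

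Of 66 members with an entry in the RefSeq promoter table, 27 had such a run, or 40.9%, against 13.85% of all 27025 genes of that table. A run of at least 6 was present in 36 members, or 54.55%, and in 29.9% of all genes. A match describes the letters at or near the annotated start and is no measurement of translation.

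Each value is a normalized count, that is a gene's reads divided by 1 factor for the library, and the 2 models were scaled separately, so no level was tested between them. The CT26 libraries held between 10.7 and 14.27 (in units of 1e+06) summed values each, the B16 libraries between 12.39 and 15.03. Neutrophil and immature myeloid markers were present in every library, with S100a8 and S100a9 at 2.13% to 4.11% of a CT26 library and 2.4% to 3.88% of a B16 library. The 45S ribosomal RNA precursor row Rn45s took 2.57% to 3.1% of the B16 day 0 libraries and 0.427% to 1.05% of the later B16 libraries. The B16 day 0 group thus stands apart in this row too. In CT26 Rn45s fell at day 4 (log2 change -0.75) and was not called at days 8 and 11 against day 0. Between CT26 days 4 and 8 it rose (0.89). Of 10 B cell markers, all 10 fell in CT26 at days 4 and 11, and their summed level was 3318 to 3468 normalized counts at day 0 and 401 to 799 at day 11.

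Levels of the members were uneven. Exon length here joins the exons of all annotated transcripts of a gene, so the order per 1000 bases depends on that annotation. Per 1000 bases of exon, the small subunit gene Rps9 (chr7:3703993-3706897, plus strand, a protein-coding gene) stood highest at day 0 in both models, with 5510 normalized counts in CT26 and 12800 in B16, and it held 12.3% and 11.9% of the summed level of the family. Next in CT26 came the stalk gene Rplp0 with 3660 and Rps15 with 2760, and next in B16 Rps3a1 with 8110 and Rplp1 with 7710 normalized counts per 1000 bases. At the other end, Rpl10l, a copy of Rpl10 known from testis, and Rps27rt were at 0 in every library. Rpl26, which in humans and mice is a core protein of the large subunit, averaged 0.492 normalized counts in CT26 and 0.499 in B16, and Rpl39l, a copy of Rpl39 known from male germ cells, 0.0833 and 3.47. Of the 50-base words in the longest protein-coding transcript of Rpl26, 47.4% occur, on either strand, in transcripts of 12 other annotated genes. These 4 fell under the minimum mean of 5 and were not tested, which leaves 83 members in each model. The lowest that were tested averaged 9.51 (Rps4l in CT26) and 24.3 (Rpl22l1 in B16).

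**Figure D1:**
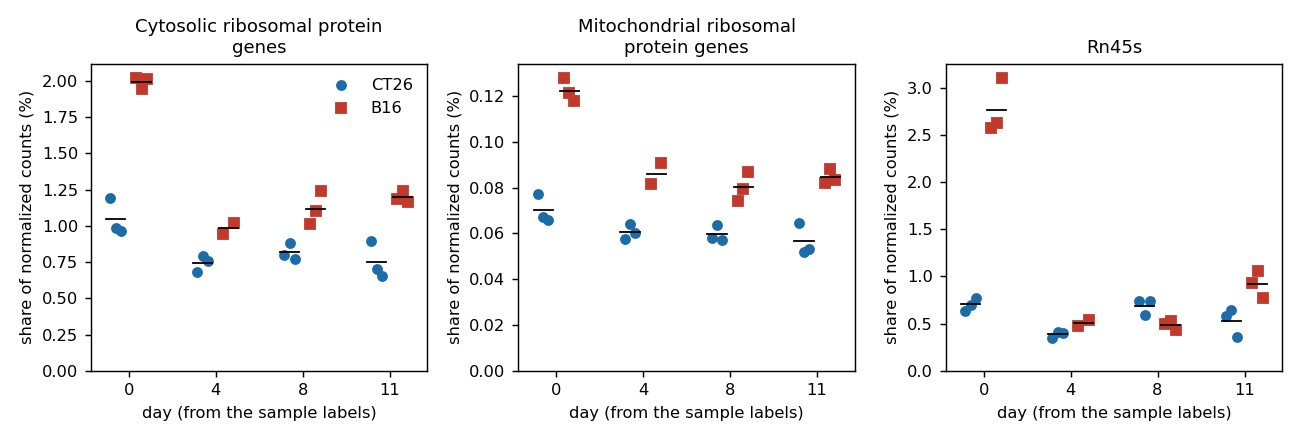
Share of all normalized counts of a library, in percent, held by the cytosolic ribosomal protein genes, the mitochondrial ribosomal protein genes and Rn45s, by day; each point is a library (circles CT26, squares B16) and each bar the group mean. The B16 day 0 libraries lie at 1.94% to 2.02% for the cytosolic genes, above all later B16 libraries.

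The family as a whole took a smaller part of the libraries after day 0 in both models. In B16 it held 2.02%, 1.94% and 2.01% of the 3 day 0 libraries, 0.945% and 1.02% of the 2 at day 4, 1.01%, 1.10% and 1.24% at day 8, and 1.19%, 1.24% and 1.16% at day 11. No later B16 library reached the day 0 libraries. In CT26 it held 1.19%, 0.988% and 0.966% at day 0, 0.681%, 0.792% and 0.760% at day 4, 0.797%, 0.884% and 0.769% at day 8, and 0.894%, 0.704% and 0.654% at day 11. Every later CT26 library lay below every day 0 library, with day 0 replicate 1 highest. Large and small subunit genes held like parts at day 0, at 0.486% ± 0.052 and 0.487% ± 0.067 in CT26 and 0.950% ± 0.017 and 0.942% ± 0.024 in B16 (SD, n = 3). In bulk RNA, fewer cells of a type and less RNA per cell cannot be told apart.

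In B16 nearly every tested member fell at day 4. Of 83 members 77 fell and 0 rose (limma, Benjamini-Hochberg adjusted over 11930 genes, threshold 0.05), where 15.5% of all genes tested fell and 20.3% rose. The median log2 change of the members was -0.94, against 0.01 for all genes tested. The 2 day 4 libraries lay below the 3 day 0 libraries for 79 members, as they did for 27.0% of all genes. The 6 not called were Rpl30, Rpl31, Rpl37rt, Rpl3l, Rps27 and Rps4l. At day 8 again 77 fell and 0 rose, with 27.3% and 28.6% of all genes (56.0% together), a median of -0.88 and no overlap for 77 members (32.0% of all genes). At day 11, 66 fell and 0 rose, with 21.8% and 23.9% of all genes, a median of -0.56 and no overlap for 71 members (27.2% of all genes). In all, 66 members fell at each of the 3 days, while Rpl30, Rpl31, Rps27 and Rps4l were called lower at none. The share of all genes that fell at each of the 3 days was not counted, and these comparisons share the day 0 libraries.

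The same B16 contrasts carry other differences. Rn45s fell with log2 changes of -2.40, -2.65 and -1.46 at days 4, 8 and 11. The 6 platelet markers all rose at days 4 and 8, and 5 rose at day 11, with summed levels of 2403 to 8462 normalized counts at day 0 and 15440 to 68810 later. Of 10 B cell markers 4, 6 and 4 fell and 1 rose at each day. The 3 erythroid markers tested all rose at day 4, from sums of 50.8 to 84.1 at day 0 to 665 and 729, and 0 rose at day 8 and 1 at day 11. The 3 eosinophil markers tested all rose at day 8, from 434 to 549 at day 0 to between 1777 and 2055, and 1 rose at days 4 and 11. Tissue macrophage markers rose in 1, 3 and 1 of 3 tested, with sums of 1.03 to 22.1 at day 0 and 57.5 to 71.3 at day 8. Of 8 immediate early genes 7, 3 and 1 fell and 1, 4 and 7 rose. Of 10 neutrophil and immature myeloid markers 4, 6 and 9 rose and 1, 2 and 0 fell. Their part in the lower member levels was not tested. Rescaling the libraries to equal totals without Rn45s and the members themselves left 79, 73 and 75 members lower. Equal totals of all rows moved all genes too, with fewer of them called lower at day 8 and more at day 11. The member counts are to be read beside that shift. The share of all genes called lower without Rn45s and the members is not given here.

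Members of the small subunit and of the large subunit moved alike at days 4 and 8 in B16. At day 4, 43 of 47 large subunit genes fell, with a median log2 change of -0.91, and 31 of 33 small subunit genes, with a median of -0.97. At day 8 the medians were -0.86 and -0.89. At day 11 the sets stood further apart: 35 of 47 large subunit genes fell, with a median of -0.49, and 28 of 33 small subunit genes, with a median of -0.59. All 3 stalk genes fell at each day. The largest fall was that of Rps21, a small protein of the small subunit (chr2:180257377-180258445, plus strand). Its level was 2180.5, 2015 and 2045 at day 0, 681 and 709 at day 4, 568, 662 and 786 at day 8 and 856, 947 and 914 at day 11. The 3 day 0 libraries stand far above all 8 later ones, day 11 is above day 8 in every library, and the log2 changes were -1.58 ± 0.11, -1.64 ± 0.099 and -1.20 ± 0.099 (SE; limma adjusted p = 2.79e-06, 1.47e-07 and 2.93e-06).

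Rpl38, a large subunit protein known in mice for selective translation of Hox mRNAs (chr11:114668524-114672331, plus strand), was next at day 4. Its B16 level was 1471, 1426 and 1497 at day 0, 489 and 522 at day 4, 395, 476 and 549 at day 8 and 706, 726 and 746 at day 11. Day 4 and day 8 lie under day 11 in every library, and all lie under day 0. The log2 changes against day 0 were -1.53 ± 0.11, -1.64 ± 0.099 and -1.01 ± 0.099 (limma adjusted p = 3.44e-06, 1.47e-07 and 9.3e-06).

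Rps13 and the stalk protein gene Rplp2 fell by 1.37 at day 4 on the log2 scale. At day 8 the next falls were those of Rpl37a, a zinc finger protein of the large subunit, with -1.60, and of Rps27a, which encodes ubiquitin fused to a ribosomal protein, with -1.45. At day 11 they were those of Rplp2 with -1.09, Rpl37a with -1.07 and Rps3a1, a small subunit protein, with -1.06. The Rps3a1 level in B16 was 8057, 7802 and 7914 at day 0, 2973 and 3182 at day 4, 2805, 3141 and 3401 at day 8 and 3856, 3889.5 and 3644 at day 11. Within each day its libraries lie close together, and no later library reached the day 0 range.

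**Figure D2:**
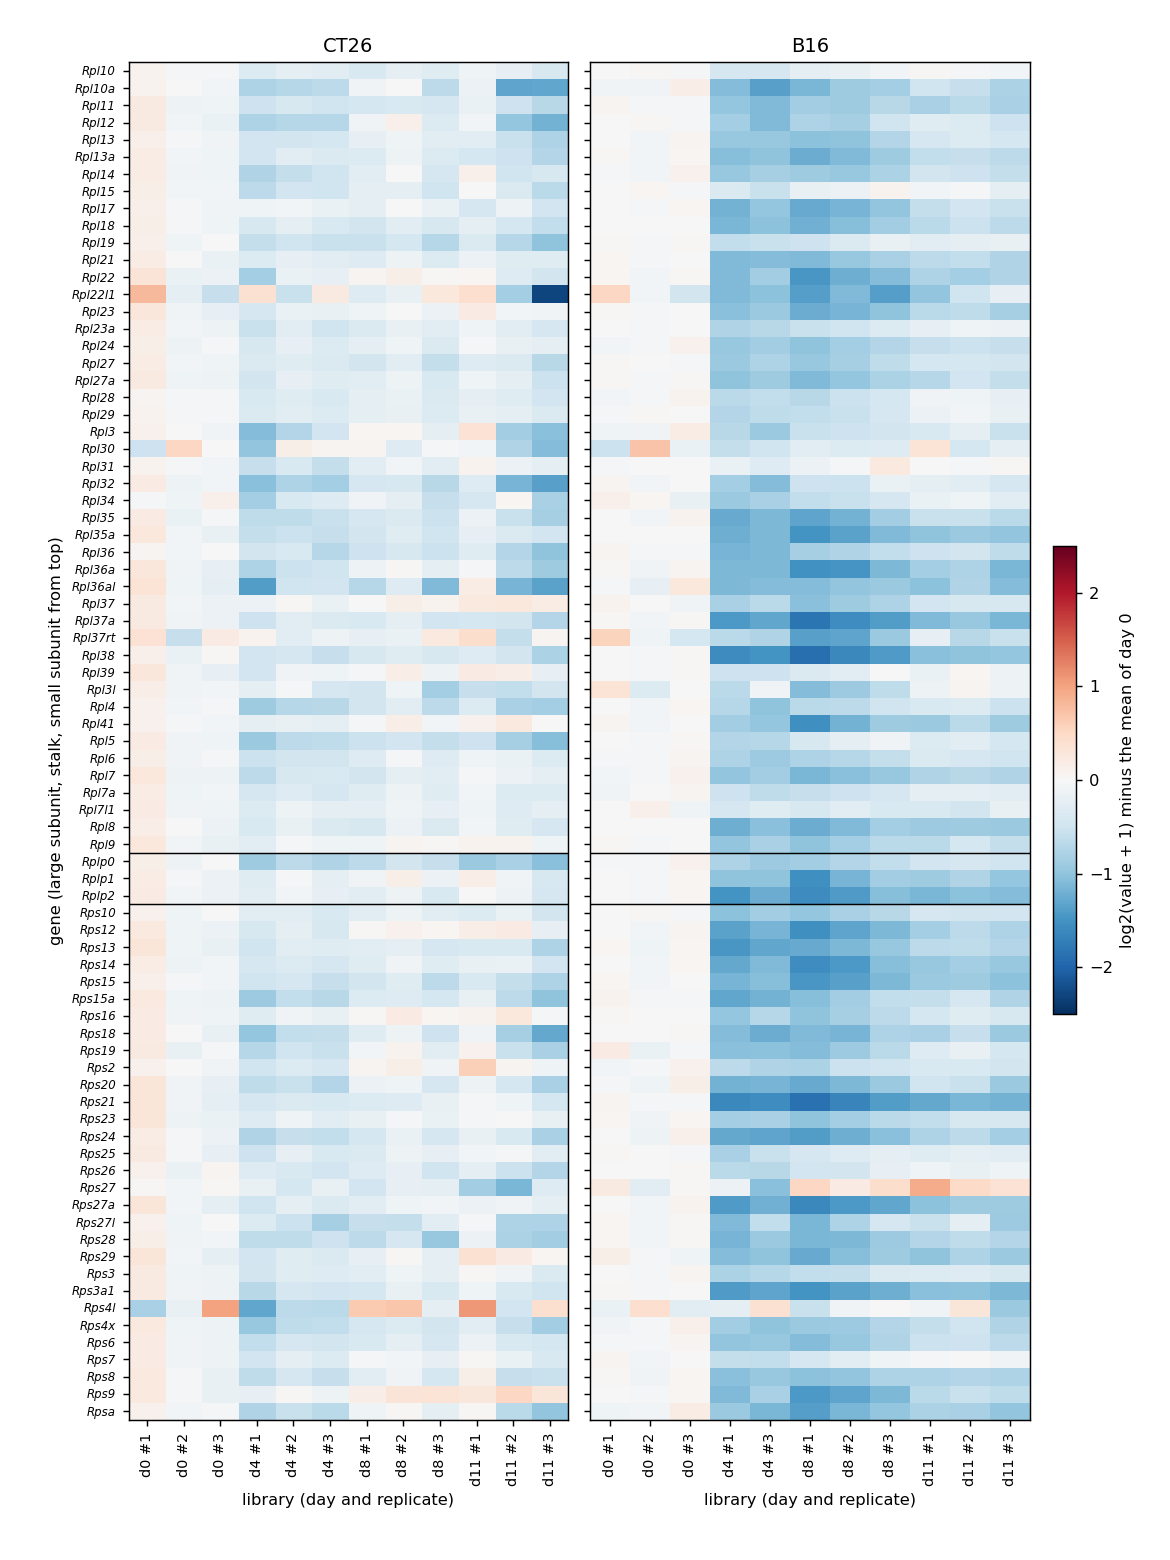
Change of 79 of the 83 tested members in each library, as log2(value + 1) minus the mean of the day 0 libraries of the same model; rows are genes (large subunit, stalk and small subunit from top) and columns libraries. B16 columns after day 0 are blue in nearly all rows, with Rps27 among the few rows that are red at days 8 and 11; CT26 columns are paler and vary more between rows.

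In CT26 fewer members were called, although the difference between the models was not tested. At day 4, 49 of 83 fell and 0 rose (limma, adjusted over 11373 genes), where 4.46% of all genes tested fell and 6.40% rose, and the median log2 change was -0.41 against 0.02 for all genes. The 3 day 4 libraries lay below day 0 for 67 members, and for 18.1% of all genes. At day 8, 27 fell and 0 rose (11.8% and 15.1% of all genes), with a median of -0.26 and no overlap for 42 members (23.3% of all genes). At day 11, 48 fell and 2 rose, Rps9 and Rpl37 (24.0% and 26.3% of all genes, 50.3% together), with a median of -0.34 and 35 members wholly below day 0 (25.7% of all genes). Members that fell at all 3 days numbered 23, and 24 fell at none, and the like shares of all genes were not counted. All B cell and eosinophil markers that could be tested fell at days 4 and 11 in CT26 (10 and 4 genes), and 8 and 4 of them fell at day 8. Of 10 neutrophil and immature myeloid markers 5, 7 and 7 rose at days 4, 8 and 11 and 0 fell. Of 5 classical monocyte markers 3, 3 and 2 rose and 0, 0 and 2 fell. Immediate early genes fell in 7, 6 and 7 of 8, and tissue macrophage markers rose in 0, 4 and 5 of 5 tested. Their part in the lower member levels was not tested.

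The CT26 counts depended on the scaling and on single libraries. With equal library totals 57, 52 and 69 members were lower at days 4, 8 and 11, with medians of -0.53, -0.44 and -0.63. This scaling moved all genes too: more of them were called lower at each of these days, and their median fell at days 8 and 11. Without day 0 replicate 1, which had the highest member share, the count at day 4 was 19, and it was 22 and 24 without day 4 replicate 1 or 3. At day 8 it was 10 without day 0 replicate 1, 13 without day 8 replicate 1, 10 without day 8 replicate 3 and 41 without day 11 replicate 1, and at day 11 it was 30 without day 11 replicate 3 and 32 without day 0 replicate 1. The day 4 median without day 0 replicate 1 was -0.34 and the day 8 median -0.17. The count test of edgeR on the reads recovered in 8 of the 12 CT26 libraries, called 1, 3 and 40 members lower at days 4, 8 and 11, and DESeq2 16, 7 and 31. Only 1 day 4 library was among them, so its counts assume that it varies like the libraries of the other days. The shares of all genes called by the count tests and without single libraries are not given here. These member counts therefore cannot be set against all genes, and fewer calls in general cannot be told from fewer calls among the members.

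Rplp0, the protein that anchors the stalk on which translation factors bind (chr5:115559467-115563727, plus strand), fell at every day in both models. Its level was 6664, 5530.1 and 6025 at day 0, 3284, 3845 and 3617 at day 4, 3846, 4396 and 4083 at day 8 and 3192, 3473 and 2951 at day 11. All 9 later libraries lie below the 3 at day 0, and day 11 lies below day 8. The log2 changes against day 0 were -0.76 ± 0.092, -0.56 ± 0.092 and -0.92 ± 0.092 (limma adjusted p = 4.86e-05, 0.000208 and 3.66e-07), and that between days 8 and 11 was -0.36 (adjusted p = 0.0106, above the threshold without day 8 replicate 2 or day 11 replicate 3). In B16 the Rplp0 level was 6038, 6041 and 6808 at day 0, 3693 and 3329.8 at day 4, 3461, 3788 and 4107 at day 8 and 4509, 4692 and 4441 at day 11. Here the log2 changes were -0.84, -0.73 and -0.47, and the level rose by 0.27 ± 0.073 between days 8 and 11 (limma adjusted p = 0.0129, above the threshold with equal library totals and without day 11 replicate 2).

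The other stalk genes, Rplp1 and Rplp2, whose proteins pair up on Rplp0, gave no call in CT26, with log2 changes of -0.20, -0.03 and -0.11 for Rplp1 and -0.19, -0.26 and -0.18 for Rplp2. In B16 both fell at every day, with log2 changes of -1.19 and -0.87 at days 8 and 11 for Rplp1 and of -1.37, -1.36 and -1.09 at days 4, 8 and 11 for Rplp2. Whether the models differ was not tested.

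Rpl32, Rpl4 and Rplp0 were among the 4 largest falls of the members called at CT26 day 4. The large subunit gene Rpl32 (chr6:115805505-115808747, minus strand) was at 683, 543 and 563 at day 0, 288, 348 and 329 at day 4, 441, 452 and 367 at day 8 and 477, 263 and 229.9 at day 11. It fell by 0.88 ± 0.19 at day 4 (limma adjusted p = 0.00722) and by 0.95 ± 0.19 at day 11 (adjusted p = 0.00058), while at day 8 the change was -0.50 (adjusted p = 0.0627) with no overlap. Rpl4 fell by 0.76 at day 4. At day 8 Rps28 (-0.68), Rpl19 (-0.57) and Rplp0 were among the 4 largest falls, and at day 11 Rpl32, Rpl10a (-0.92) and Rplp0 were. Exons of Rpl32 overlap those of Cand2 on the opposite strand, and without strand the reads of such pairs cannot be told apart.

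Rps9 took the opposite course in CT26. The CT26 level of this small subunit gene was 16249, 13305 and 12160.0 at day 0, 12045, 14163 and 12555 at day 4, 15402, 17167 and 17502 at day 8 and 16814, 19881 and 17115 at day 11. Day 4 overlaps day 0, while the 3 libraries of day 11 lie above those of day 0, and those of day 8 above those of day 4. It rose by 0.37 ± 0.11 between days 0 and 11 (limma adjusted p = 0.0123) and between days 4 and 8 (adjusted p = 0.0406). The day 11 call was lost with equal library totals, with both count tests and without day 0 replicate 2 or 3. The call between days 4 and 8 was lost with edgeR, with no filter, without the trend, without day 0 replicate 2 and without replicate 1 or 3 of day 4 or any library of day 8. The part of the family's summed level held by Rps9 was 12.7%, 12.5% and 11.7% in the CT26 day 0 libraries and 15.9%, 19.8% and 19.6% in those of day 11.

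In B16 the Rps9 level was 31894, 31497 and 33213 at day 0, 15059 and 18279 at day 4, 11879, 12951 and 14706 at day 8 and 20278, 21915 and 20786 at day 11. It fell by 0.96, 1.29 and 0.62 at days 4, 8 and 11, was lower at day 8 than at day 4 (log2 change -0.34, adjusted p = 0.0169, above the threshold with equal library totals and without day 4 replicate 3 or day 8 replicate 1 or 2), and rose by 0.68 ± 0.083 between days 8 and 11 (adjusted p = 6.58e-05). Its part of the family's sum was 11.7% to 12% at day 0, 9.43% to 9.46% at day 8 and 11.5% to 11.9% at day 11. Without Rps9 the family still held 1.78%, 1.71% and 1.77% of the B16 day 0 libraries and 0.839% and 0.891% at day 4.

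Rpl37 (chr15:5116645-5119140, plus strand), a zinc finger protein of the large subunit that binds Mdm2 in human cells, was the other member that rose between days 0 and 11 in CT26. Its CT26 level was 1037, 853 and 805 at day 0, 810.0, 909 and 794 at day 4, 889.5, 986 and 954 at day 8 and 1059.9, 1072 and 1013 at day 11. Day 11 overlaps day 0 through day 0 replicate 1, and the log2 change was 0.23 ± 0.093 (limma adjusted p = 0.0487). With equal library totals the change was -0.05, in the opposite direction. In B16 it fell by 0.74, 0.90 and 0.43.

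**Figure D3:**
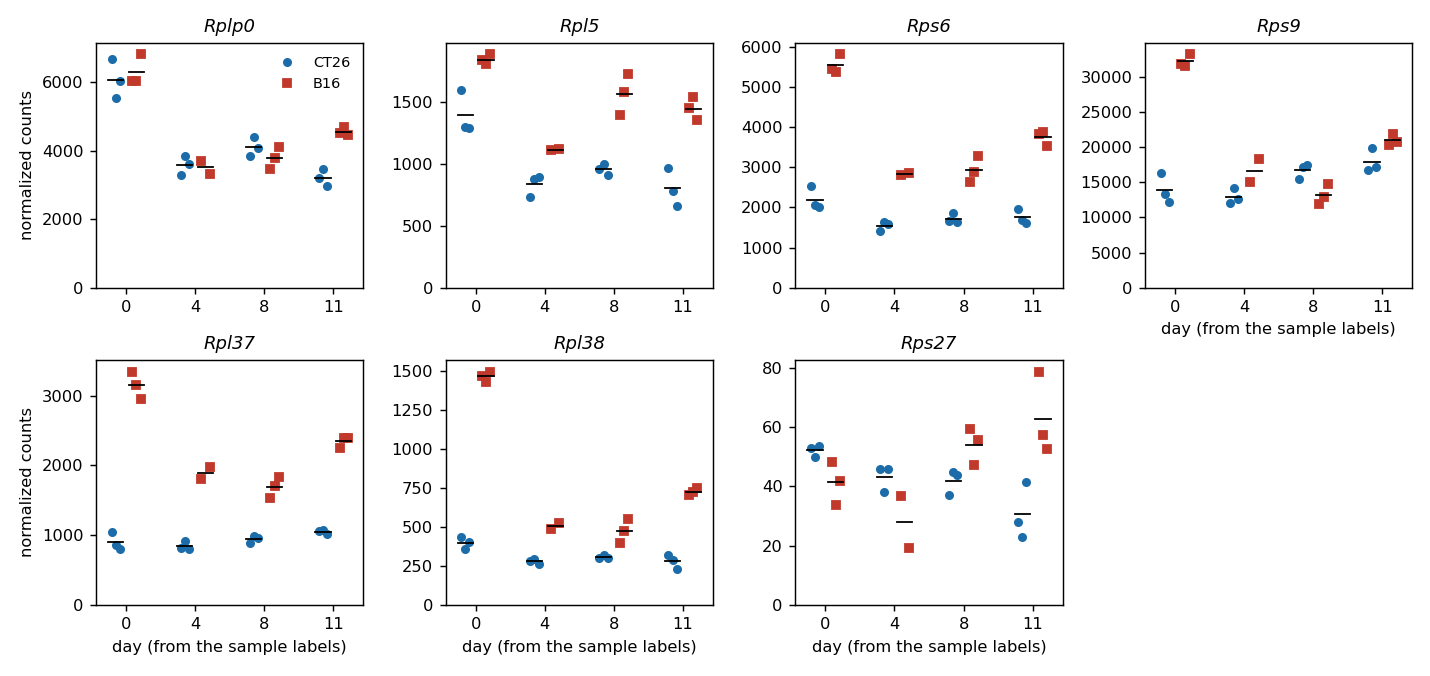
Normalized counts of 7 members by day; each point is a library (circles CT26, squares B16) and each bar the group mean, with the vertical axis from 0 and the models scaled separately. Rps9 rises over the CT26 days from about the day 0 level to 16814, 19881 and 17115 at day 11, while in B16 it is lowest at day 8.

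Rps27, a zinc-binding protein of the small subunit (chr3:90212522-90213651, minus strand), was scarce and did not follow the family in B16. The B16 level was 48.3, 33.8 and 41.9 at day 0, 36.7 and 19.2 at day 4, 59.4, 47.1 and 55.8 at day 8 and 78.8, 57.3 and 52.6 at day 11. It stood at or above the day 0 range in most libraries of days 8 and 11, and all 3 day 11 libraries lay above day 0, with a log2 change of 0.59 ± 0.26 (limma adjusted p = 0.082). Between days 4 and 8 it rose by 0.99 ± 0.29 (adjusted p = 0.0231), a call lost without day 4 replicate 3, which leaves a single day 4 library, or day 8 replicate 1 or 3. In CT26 it was 53.1, 50.1 and 53.7 at day 0, 45.9, 38.2 and 45.7 at day 4, 37, 45 and 43.9 at day 8 and 28, 23 and 41.4 at day 11, and the log2 change at day 11 was -0.79 ± 0.21 (adjusted p = 0.00576, above the threshold with DESeq2). Its paralog Rps27l, a target of p53, fell at all 3 days in B16 (-0.85, -0.77 and -0.57) and at day 11 in CT26 (-0.52). Of the 50-base words in the longest protein-coding transcript of Rps27, 63.1% also occur in other annotated genes. Its counts may therefore depend on how shared reads were placed.

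Of the proteins that bind Mdm2 with 5S RNA, Rpl5 and Rpl11, both fell at all days in both models. The Rpl5 level in CT26 was 1597, 1305 and 1292 at day 0, 733, 883 and 898 at day 4, 960.5, 1000.4 and 914 at day 8 and 968, 781 and 663 at day 11. In B16 it was 1844, 1808 and 1889.7 at day 0, 1115 and 1121 at day 4, 1397, 1585 and 1727 at day 8 and 1451, 1543 and 1357 at day 11. B16 day 4 lies lowest and day 8 recovers part of the fall, with log2 changes of -0.72 ± 0.086, -0.24 ± 0.077 and -0.35 ± 0.077 against day 0 and a rise of 0.48 ± 0.086 between days 4 and 8 (limma adjusted p = 0.00137). In CT26 the changes were -0.74, -0.54 and -0.81.

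Rps6, the substrate of the S6 kinases downstream of mTORC1, fell at all days in both models, by 0.50, 0.35 and 0.32 in CT26 and by 0.97, 0.93 and 0.57 in B16. In B16 its level was 5461, 5388 and 5822 at day 0, 2800.2 and 2864 at day 4, 2631, 2875 and 3290.1 at day 8 and 3825, 3882 and 3536 at day 11. Day 0 was highest, day 11 lay between, and days 4 and 8 overlapped at the bottom. Of the 50-base words in the longest protein-coding transcript of Rps6, 84.6% occur in other annotated genes, and for Rpl5 93.8%. Rps3, a small subunit protein at the mRNA entry that also takes part in DNA repair, fell by 0.36 at CT26 day 4 and at all B16 days (-0.74, -0.52 and -0.35). Rps19, the gene most often mutated in Diamond-Blackfan anaemia, fell by 0.59 at CT26 day 4 and by 1.03, 0.89 and 0.32 in B16.

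Rpl13a, known in human monocytes for silencing inflammatory mRNAs when it leaves the ribosome, fell by 0.38 and 0.56 at CT26 days 4 and 11, with -0.27 at day 8 (adjusted p = 0.0544), and by 1.04, 1.07 and 0.62 in B16. Rpsa, also known as a laminin receptor, was at 1305, 1161 and 1187 at day 0, 723, 828 and 759.8 at day 4, 1131, 1239 and 1020.3 at day 8 and 1243, 760.3 and 616 at day 11 in CT26. It fell at day 4 by 0.66, rose between days 4 and 8 by 0.55 ± 0.17 (limma adjusted p = 0.0396) and was lower than day 0 again at day 11 (-0.54), where replicate 1 stands near the day 0 level. Rpl3, the protein near the peptidyl transferase centre, fell at all B16 days (-0.81, -0.51 and -0.40) and had CT26 changes of -0.76, -0.04 and -0.52 that were not called.

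Among the paralog pairs, some were called lower together and others were not. Rpl22 and Rpl22l1 fell at B16 days 4 and 8, by 0.99 and 1.25 and by 1.07 and 1.28, and neither was called in CT26. Rpl36a and Rpl36al fell at all B16 days, by 1.12, 1.37 and 0.92 and by 1.11, 1.00 and 0.95. Rpl7 fell in B16 by 0.92, 1.04 and 0.73 and its relative Rpl7l1 by 0.36, 0.35 and 0.35. In CT26 Rpl36a was called lower at days 4 and 11 and Rpl7 at days 4 and 8, and Rpl36al and Rpl7l1 at none, where the log2 changes of Rpl36al were -0.79, -0.71 and -0.76. Rpl3l, which is known for skeletal muscle and heart, was at 94.3 to 154 normalized counts at B16 day 0, fell at day 8 by 0.88 and rose between days 8 and 11 by 0.82 ± 0.21 (limma adjusted p = 0.00857). Rps4x fell at all days in both models, while Rps4l, at 4.42 to 17.9 normalized counts in CT26 day 0 and 23.2 to 37.9 in B16 day 0, was called in none of the 10 comparisons. Rpl39 fell at B16 day 4 only among the days compared with day 0 (-0.51), and Rpl10 fell at all CT26 days (-0.28, -0.30 and -0.24) and at B16 days 4 and 8 (-0.42 and -0.17).

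Part of the B16 fall was regained between days 8 and 11. In that step 50 members rose and 0 fell, where 18.7% of all genes rose and 17.4% fell, and the median log2 change was 0.32 against -0.05 for all genes. The day 11 libraries lay above all day 8 libraries for 49 members, as for 24.7% of all genes. Among the large subunit genes that rose were Rpl10a, Rpl12, Rpl13, Rpl13a, Rpl14, Rpl17, Rpl18, Rpl21, Rpl22, Rpl23, Rpl23a, Rpl24, Rpl27, Rpl27a, Rpl28, Rpl29, Rpl35, Rpl35a, Rpl36a, Rpl37, Rpl37a, Rpl37rt, Rpl38, Rpl3l, Rpl41, Rpl6, Rpl7, Rpl7a and Rpl9. The small subunit genes were Rps10, Rps12, Rps13, Rps14, Rps15, Rps16, Rps19, Rps20, Rps21, Rps23, Rps24, Rps26, Rps27a, Rps28, Rps3a1, Rps4x, Rps6, Rps7 and Rps9, and of the stalk Rplp0 rose. Rpl3l (0.82), Rpl37rt (0.71), Rps9 (0.68) and Rpl38 (0.63) rose most. Rn45s rose too in this step, with a log2 change of 1.19, as did 7 of 10 neutrophil and immature myeloid markers and 6 of 10 B cell markers. The count rests on the scaling: with equal library totals 10 members rose and 7 fell, and Rps4x changed by -0.02. The median of the members was then 0.05, where the median of all genes was -0.31. This scaling moved all genes too, with fewer of them called higher and more called lower. Under both scalings the median of the members lay above that of all genes.

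From day 4 to day 8 of B16 14 members rose, among them Rpl10, Rpl15, Rpl23a, Rpl32, Rpl36, Rpl39, Rpl5, Rps15a, Rps25, Rps26, Rps27 and Rps7, and Rps9 fell (12.7% and 14.1% of all genes). The day 8 libraries lay above both day 4 libraries for 26 members, and for 26.0% of all genes. Besides Rps27 and Rpl5 the largest rises were those of Rpl32 with 0.56 and Rpl36 with 0.42. Without day 4 replicate 3 the count of members that rose was 6, in a fit whose only day 4 library takes its spread from the other groups. With equal library totals 36 rose, and this scaling also raised the median of all genes and the number of all genes that rose. Without day 8 replicate 3, 10 fell, and 0 fell when replicate 3 of day 4, or replicate 1 or 2 of day 8, was left out. Erythroid markers of B16 day 4 summed to 665 and 729 normalized counts, against 31.4 to 57.5 at day 8, and Hbb-bt, Hba-a1 and Hba-a2 were at 0 in all of these libraries.

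In CT26 the steps after day 4 held few calls. Between days 4 and 8 Rpsa, Rps2 (0.47), Rps12 (0.41), Rps9 and Rpl31 (0.32) rose and 0 fell (7.42% and 5.96% of all genes), with a median of 0.16. Between days 8 and 11 Rpl10a (-0.67), Rpl12 (-0.64), Rplp0, Rpl13 (-0.33) and Rpl13a (-0.29) fell and 0 rose (9.94% and 10.9% of all genes). The median was -0.05. Of 83 members 13 had an unadjusted p under 0.05, where 20.9% of all genes were called in either direction even after adjustment. The day 11 libraries of Rplp0 and Rpl13a lay wholly below day 8, as for 15.4% of all genes. Both counts were 23 without day 11 replicate 1. That library held 7089 normalized counts of tissue macrophage markers, against 885 and 1494 in the other two of day 11 and under 9 in those of days 0 and 4, and its member share was the highest of its group. The day 8 libraries held 298 to 843. Between days 8 and 11 the 10 B cell markers fell (from sums of 1494 to 2176 to 401 to 799), as did 6 of 9 T cell markers, 3 of 3 NK cell, 4 of 4 eosinophil and 6 of 8 immediate early genes tested, while 3 of 5 tissue macrophage markers rose. Their part in the lower member levels was not tested. The count of rises was 0 on leaving out replicate 1 or 3 of day 4 or replicate 1 or 2 of day 8. It was 2 without replicate 2 of day 0 or 3 of day 8, 3 without replicate 3 of day 0 and 9 without replicate 3 of day 11. The count of falls was 0 when replicate 2 of day 8 was left out, 1 without replicate 1 of day 8 or 3 of day 11, 2 without day 11 replicate 2 and 3 without day 0 replicate 2 or any one of the day 4 libraries.

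**Figure D4:**
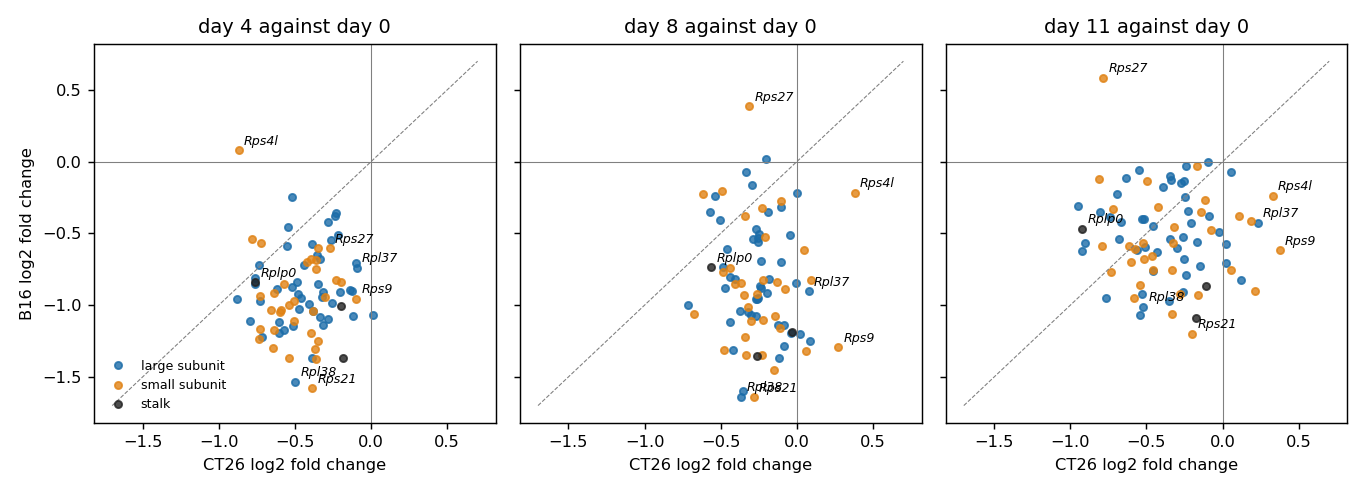
Log2 fold change of each tested member in B16 (vertical) against CT26 (horizontal), at days 4, 8 and 11 against day 0; points are genes, colored by subunit, and the dashed line marks equal change. Most points lie in the lower left part and below the line, and their order in one model says little of that in the other (r of 0.03, -0.09 and -0.06 over 83 genes).

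The members that changed most in one model were not those that changed most in the other. Across the 83 members the log2 changes of the models had a Pearson r of 0.03, -0.09 and -0.06 at days 4, 8 and 11, given as a description over genes of shared libraries within each model, with no library common to both. The B16 change was below the CT26 change for 77, 74 and 53 members, a difference that was not tested because the models were scaled separately and the strains differ. Members lower in both models numbered 48 at day 4, which is 98% of those lower in CT26 and 62.3% of those lower in B16. At day 8 the 27 were 100% and 35.1%, and at day 11 the 39 were 81.2% and 59.1%. Of all 83 members 92.8%, 92.8% and 79.5% were lower in B16 at these days and 59%, 32.5% and 57.8% in CT26, so the shared calls lie near what the share of each model alone would give. Over all 6 comparisons with day 0, 18 members fell in each, among them Rpl11, Rpl18, Rpl19, Rpl35, Rpl35a, Rpl36, Rpl37a, Rpl38, Rpl4, Rpl5, Rplp0, Rps15, Rps28, Rps3a1, Rps4x and Rps6. Rpl30 and Rps4l fell in none, and no such count was made over all genes.

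Members with a pyrimidine run at or near the annotated start and those without had like changes. The split rests on the first start listed for each gene and counts some runs that end before it. It therefore does not sort TOP mRNAs from others. At B16 day 4 the median log2 change was -0.95 for 27 with a run, of which 25 fell, and -0.91 for 35 without, of which 33 fell. At CT26 day 4 the medians were -0.40 and -0.41, with 18 and 19 that fell. Of the genes whose starts are printed, Rplp0, Rpl5 and Rps3a1 carry no run and the others, Rps9 among them, do. All of them fell at all B16 days except Rpl15, with a run, which was called lower at day 4 only. In the split by words shared with other genes, 46 members with at most 50% of their 50-base words shared had a median of -0.95 at B16 day 4, with 43 that fell, and 37 with more had -0.94, with 34 that fell. At CT26 day 4 the sets were less alike: 22 of 46 with fewer shared words fell, with a median of -0.39, and 27 of 37 with more, with a median of -0.48. No test was made of these splits.

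Groups of genes with related roles gave mixed counts. Of all genes tested, 15.5%, 27.3% and 21.8% fell and 20.3%, 28.6% and 23.9% rose at B16 days 4, 8 and 11, and 4.46%, 11.8% and 24.0% fell and 6.40%, 15.1% and 26.3% rose at the same days of CT26. No list was tested against these shares. Of 3 partners of the ribosome with other names, Fau, which encodes a ribosomal protein fused to a ubiquitin-like one, was at 25820 normalized counts at B16 day 0 and 9930 at day 8 (log2 change -1.38), and Gnb2l1, the scaffold RACK1, fell by 0.45. In CT26 Gnb2l1 fell by 0.58 at day 11, and Fau was at 0.16 without a call. Elongation factors fell in 5, 4 and 4 of 6 genes at B16 days 4, 8 and 11, led at day 8 by Eef1b2 (-1.19) and Eef1d (-0.73), while Eef2, which moves the ribosome along the mRNA, rose at days 8 and 11 (0.30 and 0.12). They fell in 1, 0 and 2 genes in CT26, where 0 rose, at day 11 Eef1d (-0.37) and Eef2 (-0.27). Of 11 other genes known for TOP mRNAs, 7, 8 and 6 fell and 1, 2 and 1 rose in B16, led at day 8 by Hnrnpa1 (-1.36) and Btf3 (-1.08); in CT26 4, 2 and 4 fell and 0, 0 and 3 rose, with Eif3e at -1.53 and Eif3h at -0.96 at day 11.

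Of 28 initiation factors tested, 12, 10 and 17 fell and 4, 8 and 4 rose in B16. At day 8 these are 35.7% lower and 28.6% higher, near the shares of all genes. Named by size of change were Eif2b2 at 1.36 and Eif5b at -1.16 at day 8. In CT26 2, 4 and 10 fell and 0, 0 and 4 rose, with Eif3m at -1.13 and Eif3g at -0.90 at day 11. The mitochondrial ribosomal protein genes, which encode a separate ribosome, fell in 29, 44 and 40 of 77 in B16, where 0, 1 and 0 rose, and in 2, 9 and 21 of 75 in CT26, where 0, 1 and 5 rose. The CT26 counts are 2.67%, 12% and 28% lower, near the shares of all genes. Their median log2 changes in B16 were -0.43, -0.56 and -0.48, against -0.94, -0.88 and -0.56 for the cytosolic genes.

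Of the genes that build ribosomes, 8, 7 and 10 of 30 fell in CT26 and 0, 1 and 1 rose, led at day 11 by Gar1 (-2.05), a protein of H/ACA small nucleolar particles, and Nob1 (-1.73), a nuclease that matures 18S RNA. In B16 3, 8 and 8 of 31 fell and 0, 4 and 2 rose, with Nhp2 at -0.99 and Nop16 at -0.98 at day 8. The B16 counts are 9.68%, 25.8% and 25.8% lower, under the shares of all genes at days 4 and 8 and over it at day 11. Of 7 RNA polymerase I genes, 0, 0 and 5 fell in CT26, with Polr1e at -2.03 and Rrn3 at -1.29 at day 11, and 1, 3 and 3 fell and 0, 1 and 1 rose in B16, where Polr1d was at -0.83 and Polr1e at 1.07 at day 8. Of 17 mTORC1 and MYC regulators, 6, 7 and 9 rose and 3, 5 and 2 fell in B16, with Mtor at 1.19 and its inhibitor Tsc2 at 1.18 at day 8. In CT26 1, 4 and 6 rose and 1, 2 and 3 fell, with Rptor, the substrate-binding partner of mTOR in mTORC1, at -1.69 and the translation repressor Eif4ebp1 at 1.06 at day 11. The ribosomal pseudogene rows Rps15a-ps6 (-1.63) and Rps15a-ps4 (-1.27) fell at B16 day 8, and Rps15a-ps6 (-1.02) at CT26 day 11.

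The non-member genes whose levels followed the mean z-score of the members most closely in both models were Rbm3, Naca, Eef1d, Gnb2l1 and Banf1, with Pearson r of 0.945, 0.918, 0.908, 0.899 and 0.91 over 12 CT26 libraries and 0.97, 0.955, 0.94, 0.943 and 0.898 over 11 B16 libraries. The libraries share the days as groups, so these values describe likeness of course. Rbm3, a cold-inducible RNA-binding protein, was at 2704 ± 122 normalized counts at B16 day 0 (SD, n = 3), 1545 ± 163 at day 4 (n = 2), 1682 ± 80.2 at day 8 and 1854 ± 29.7 at day 11 (n = 3).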

How the data were processed

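RNA of the MDSCs was sequenced after poly-A selection, and per the submitters' processing notes the tools named are DESeq2 1.6.3, HTSeq 0.6.1p1, TopHat2 2.0.10 and cutadapt, and the build is mm10. The deposited values are a normalized signal, which the authors made from read counts per gene with 1 factor per library, as the values show. Multiples of 1 read, within 0.001, were recovered for 19 of 23 libraries, so edgeR 4.0.16 and DESeq2 1.42.0 ran on these as alternatives; 4 CT26 libraries were left out there. The main test was limma 3.58.1 with a trend, in R 4.3.3, on log2(value + 1), for genes with a mean of at least 5, separately in CT26 (12 libraries) and B16 (11), with 4 day groups and no block. P-values are 2-sided and Benjamini-Hochberg adjusted over all genes tested, with a threshold of 0.05, and a fold change on this scale understates that of low genes. The scripts were tested on simulated data.

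Positions are GRCm38 from GENCODE, and start sequences are RefSeq on GRCm38.p6. Members and lists were chosen with earlier results of these data known. Named genes are the 4 largest called changes per comparison, members of known role, paralog pairs, and the 2 largest called changes per list at B16 day 8 and CT26 day 11. Rps21, Rpl38, Rps9, Rpl37 and Rps27 were described by library after their values were seen. Some genes that the rule would name are not reported here, but they stay in all counts and medians.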

Additional observations from a re-analysis of the deposited data

Results flagged for a closer look

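Some members had changes of opposite sign in the models, with groups that did not overlap in either; the difference itself was not tested. Between days 0 and 11 the log2 change of Rps27 was -0.79 in CT26 and 0.59 in B16, where it was not called (limma adjusted p = 0.082). That of Rps9 was 0.37 in CT26, a call lost with equal library totals and with both count tests, and -0.62 in B16. Between days 4 and 8 Rps9 had 0.37 in CT26, above the threshold with edgeR, and -0.34 in B16, above it with equal totals. Between days 8 and 11 Rpl13a had -0.29 in CT26, above the threshold with both count tests, and 0.46 in B16. In the same step Rplp0 had -0.36 in CT26 and 0.27 in B16, where the change was 0.0033 with equal totals.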

How the results depend on the processing

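In B16 the counts of members lower than at day 0 stayed within 1.5 times under every alternative run (75 to 78, 73 to 78 and 62 to 67 when single libraries were left out), with medians of -0.96 to -0.93, -0.96 to -0.79 and -0.58 to -0.51. Leaving out a B16 day 4 library, like the CT26 count tests, leaves 1 library at day 4, which is assumed to vary like the other groups. In CT26 the lower counts without single libraries were 19 to 62, 10 to 41 and 30 to 58 at days 4, 8 and 11, with 0 to 1 higher at day 8 and 0 to 3 at day 11, and medians of -0.48 to -0.34, -0.33 to -0.17 and -0.44 to -0.25. From day 4 to 8, 0 to 23 rose in CT26 (median 0.11 to 0.22) and 6 to 17 rose and 0 to 10 fell in B16 (median -0.0084 to 0.15). From day 8 to 11, 0 to 23 fell and 0 to 1 rose in CT26 (median -0.18 to 0.043), and 40 to 66 rose in B16 (median 0.24 to 0.39); 0 to 1 rose at B16 day 11 against day 0.

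CT26 lower counts were 18 (day 4) and 12 (day 8) without the limma trend, 1 and 3 with edgeR, 16, 7 and 31 with DESeq2 at days 4, 8 and 11, and 52 at day 8 with equal totals, with or without Rn45s and members. CT26 medians were -0.60 (edgeR) and -0.57 (DESeq2) at day 4, and with equal totals -0.44 at day 8 and -0.63 at day 11 (-0.44 and -0.64 without Rn45s and members). The 2 that rose at CT26 day 11 became 1 with no filter, TMM or no trend and 0 with equal totals, edgeR or DESeq2. The 5 that rose from day 4 to 8 became 2 with no filter, 3 with TMM, 1 with equal totals or DESeq2 and 0 with no trend or edgeR; the 5 that fell from day 8 to 11 became 3 with no filter and 1 with no trend, edgeR or DESeq2, and 1 rose with a minimum mean of 20.

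With equal totals, B16 medians were -0.75 at day 8 and -0.70 at day 11 (-1.04 at day 4 and -0.73 at day 11 without Rn45s and members). From day 4 to 8, 36 rose (median 0.25) and 0 fell, also 0 without the trend; from day 8 to 11, 10 rose and 7 fell (median 0.054), or 13 and 7 (0.061) without Rn45s and members. Reversed were Rpl37 at CT26 day 11 (-0.055 and -0.062) and, from B16 day 8 to 11, Rpl11 (-0.21 and -0.20), Rpl7l1 (-0.26 and -0.25) and Rps4x (-0.023 and -0.016). Equal totals took the median of all genes to -0.18 and -0.29 at CT26 days 8 and 11, 0.11 and -0.15 at B16 days 8 and 11, 0.14 from B16 day 4 to 8 and -0.31 from day 8 to 11, where it had been within 0.05 of 0. Genes higher and lower went from 728 and 507 to 479 and 788 at CT26 day 4, from 1712 and 1344 to 1161 and 2776 at CT26 day 8, from 2990 and 2731 to 1713 and 4644 at CT26 day 11, from 3415 and 3261 to 4089 and 2586 at B16 day 8, from 2856 and 2595 to 2049 and 3562 at B16 day 11, from 844 and 678 to 780 and 1160 from CT26 day 4 to 8, from 1244 and 1131 to 821 and 1692 from CT26 day 8 to 11, from 1510 and 1680 to 2695 and 903 from B16 day 4 to 8, and from 2236 and 2077 to 1016 and 4492 from B16 day 8 to 11. The share at B16 day 0 was 2.05% of a total without Rn45s and 2.11% also without S100a8 and S100a9, and 1.26% at day 11 by the latter. The cause of these shifts was not tested. Depth limits the scarce members: in CT26 the standard errors of Rps4l, Rpl22l1 and Rpl30 were 0.51, 0.54 and 0.38, wider than the median change of the members at day 8.

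Replicate numbers did not pair the libraries: same-numbered libraries had a median correlation of -0.0475 in CT26 and -0.0021 in B16. With the number as a replicate block, lower counts were 51, 28 and 49 in CT26 and 77, 77 and 64 in B16, 1 rose at CT26 day 11, 1 rose at B16 day 11, 1 rose from CT26 day 8 to 11 and 48 rose from B16 day 8 to 11.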
